A study of Mus musculus with 26 samples.

Results

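Brown and white adipocyte genes were followed across mouse models of muscular dystrophy. The set was named by symbol and held 10 genes: Ucp1, Fabp4, Rbp7, Adipoq, Cfd, Lep, Lpl, Pparg, Retn and Cidea. Of these, 8 were measured, each by 2 spots whose values were averaged, among 6540 named genes in all. Cfd and Retn had no row by symbol or gene identifier and were not analysed here. The 26 arrays had 2 channels each and held 26 RNA samples of 13 groups, 2 samples per group. Each sample was hybridised on 2 arrays, once per channel, so that the arrays formed 1 closed loop without a common reference. All signs assume that the ratios are channel 1 over channel 2, which is likely but not stated.

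Groups are called by the names of their lines. Wild type mice were of the strains bl6 and bl10. Dystrophin, the protein that ties the fibre's cytoskeleton to its membrane complex, is lacking in mdx and in mdx3cv. A sarcoglycan, part of that membrane complex, is lacking in sgca, sgcb, sgcb2 and sgcd and in 1 further line that enters the pooled values only. Dysferlin, a protein of membrane repair, is taken to be lacking in dysf and in sjl, and sarcospan, another part of the complex, in sspn. This was read from the line names, and the label sjl names no gene. Dysf mRNA was not lower than in wild type in the lines labelled dysf (log2 difference 0.55 ± 0.62, limma adjusted p = 0.82) and sjl (0.76 ± 0.50, 0.729). The genes that the lines lack were compared in 9 such cases, and the other 7 were below wild type, 3 of them with an unadjusted p under 0.05. The dysferlin-deficient group below therefore rests on this reading of the line names alone, and the data do not show lower Dysf mRNA in it. The name hDMD stands for the human DMD gene, and the link between sgcb2 and sgcb was read from the name. DS stands for the mean of the 7 lines without dystrophin or a sarcoglycan, and dysferlin-deficient for the mean of dysf and sjl. No source used here gives the tissue, age, sex, strain background or further alleles, so that strain and missing protein cannot be told apart. Whether the paired samples of a group are from different mice is not stated. The error in the tests comes from the arrays and from the samples (variance ratio of samples to arrays 0.207), and both could be technical.

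White adipocytes store triglyceride and release fatty acids by lipolysis, while brown adipocytes burn fatty acids to make heat. Ucp1, the uncoupling protein of the inner mitochondrial membrane, carries out that heat production and is the defining gene of the brown fat cell. Cidea coats lipid droplets and is also high in brown fat. Fabp4 binds fatty acids inside adipocytes and capillary endothelium, Rbp7 binds retinol in white fat and endothelium, Pparg is the nuclear receptor that drives fat cell formation, Lpl releases fatty acids from circulating triglyceride, and Adipoq and Lep encode the hormones adiponectin and leptin. In whole tissue, fewer fat cells and less RNA per fat cell cannot be told apart. Ratios of both channels give no absolute level, so neither the tissue nor the presence of fat could be checked against its markers.

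The promoters of the genes that passed the main test between DS and dysferlin-deficient lines are shown, because PPAR-type receptors bind AGGTCA half-sites. Both are RefSeq sequences of GRCm38.p6, 250 bases directly before the annotated start, on the gene's strand and 5′ to 3′. Ucp1 lies on the plus strand at chr8:83290098-83290347 and Rbp7 on the minus strand at chr4:149454969-149455218. Capitals mark AGGTCA.
Ucp1: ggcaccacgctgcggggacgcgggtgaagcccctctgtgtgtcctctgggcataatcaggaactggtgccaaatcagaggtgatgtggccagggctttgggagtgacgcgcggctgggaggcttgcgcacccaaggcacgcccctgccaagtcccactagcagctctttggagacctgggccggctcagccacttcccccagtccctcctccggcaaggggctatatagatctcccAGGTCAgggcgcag
Rbp7: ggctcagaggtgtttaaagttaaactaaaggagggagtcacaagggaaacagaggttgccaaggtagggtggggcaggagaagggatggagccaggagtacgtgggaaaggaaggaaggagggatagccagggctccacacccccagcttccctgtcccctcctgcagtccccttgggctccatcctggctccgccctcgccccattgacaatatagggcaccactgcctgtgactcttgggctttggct
AGGTCA was searched on both strands. In the Ucp1 window it occurs once, on the gene's strand, with its first base 14 bases before the start. It is not in the Rbp7 window. It was in 14.0% of all 32851 promoter windows of that length (4607). The direct repeat of that half-site with 1 base between the copies, which contains it, was searched on both strands too. It was in 11 of the windows (0.0335%) and in none of the members'. Promoter windows were matched for 5 of the 8 members, 7 windows in all, and AGGTCA was in those of Ucp1 and Pparg. A match of letters is a description and not a binding site.

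The members with the widest ranges were the brown fat genes and Fabp4. A sample's level is given as a log2 value relative to the mean of the 26 samples, solved from the loop of ratios. Over the 24 samples shown, Ucp1 ranged from -5.90 in hDMD sample 1 to 4.54 in sjl sample 2, with a median of 0.26. Cidea ranged from -4.11 in mdx3cv sample 1 to 3.82 in bl10 sample 2, with a median of 0.49. Fabp4 ranged from -6.14 in hDMD sample 1 to 2.50 in bl10 sample 2, with a median of 0.47. Rbp7 covered a narrower range and had its highest level where Fabp4 and Ucp1 were lowest. It ranged from -1.87 in sspn sample 2 to 2.56 in hDMD sample 1, with a median of -0.22. Pparg ranged from -1.88 to 1.23, Lpl from -2.29 to 2.43, Adipoq from -1.73 to 1.05 and Lep from -1.27 to 1.67. The 2 spots of a gene agreed closely for Rbp7 (Pearson's r over the 26 arrays 0.994), Cidea (0.988), Fabp4 (0.982) and Ucp1 (0.912), and less so for Pparg (0.86), Adipoq (0.818), Lpl (0.804) and Lep (0.43).

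**Figure D1:**
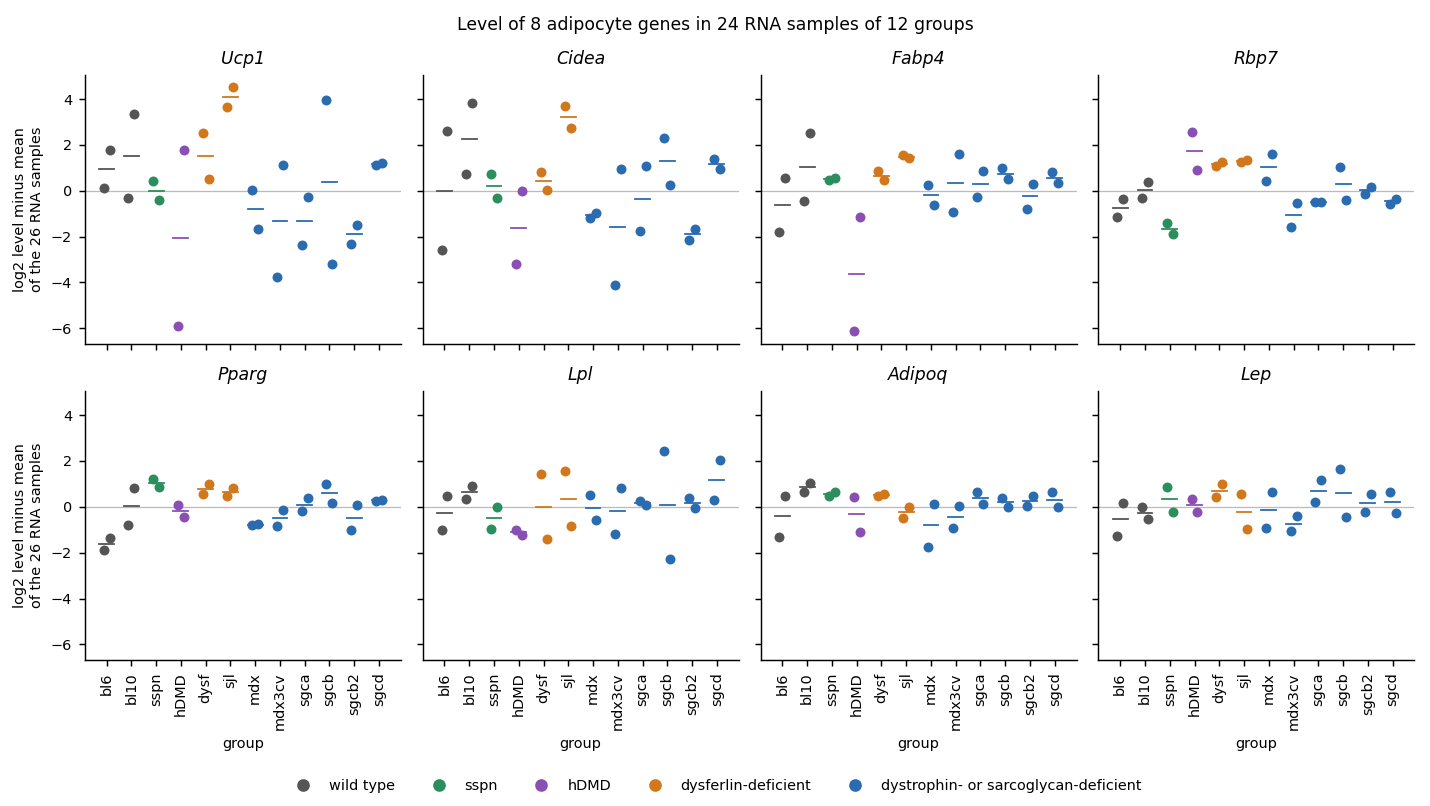
Level of each of the 8 measured genes in the 24 RNA samples of 12 groups, on the log2 scale relative to the mean of the 26 samples (y axis). Each point is 1 sample, the short line is the mean of the 2 samples of a group, and colours give the class of the line. Ucp1, Cidea and Fabp4 span 7.93 to 10.4 log2 units and their paired points often lie far apart, while the 4 dysferlin-deficient points of Rbp7 lie between 1.06 and 1.35.

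A level solved around the loop has no residual error of its own, and the error of single arrays adds up along the loop. For Ucp1, samples of 1 group could lie as far apart as samples of different groups. The sgcb samples were at 3.96 and -3.21, a gap that no other gene reached between these samples (0.0153% of all genes, which is Ucp1 itself). The hDMD samples were at -5.90 and 1.80 and the mdx3cv samples at -3.75 and 1.13. The array error alone gives a standard error of 3.23 for the sgcb gap and of 2.76 for the hDMD gap. The fit over all arrays, used for every test, weights the arrays differently, and its group level can differ from the mean of the 2 solved levels. It put Ucp1 of hDMD at 0.16 ± 0.95 (SE, n = 2) and of sgcb at 2.67 ± 0.97.

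The sample hDMD 1 stood apart on both of its arrays. On these it was more than 4-fold lower than its partner for 257 genes and higher for 3, together 260, while the other 23 samples had 0 to 121 such genes, with a median of 12 and the highest count in sgca 1. Fabp4 was lower in hDMD 1 than in dysf 2 by a log2 ratio of -6.17, and lower than in sgcb 2 by -7.06. These were the third and the fifth lowest of all genes on the arrays. Rbp7 ran the other way, with log2 ratios of 1.69 and 2.60 for hDMD 1 over the same partners. Ucp1 was at -5.86 and -3.22 and Cidea at -2.83 and -3.89, while Adipoq, the adiponectin gene, was at -0.36 and 0.66. Pparg, Lpl and Lep stayed between -0.65 and 1.25. The mean dye difference of each gene was not removed from these ratios. In hDMD 1 the level was also the lowest of the 24 samples for Lgals3 (-4.43), a macrophage gene, Cldn5 (-3.79), an endothelial junction gene, Dcn (-3.65), a fibroblast proteoglycan, and Tnnc1 (-3.58), a slow muscle troponin. Some genes of the same cells went another way. Atp2a1, a muscle fibre gene, had its highest level of the 24 samples in hDMD 1 (2.38). The endothelial gene Kdr was at 0.34 there and the fibroblast gene Fap at -0.14. The part of those cells, or of RNA quality, in the adipocyte values was not tested.

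Over the 13 groups, 4 of the 8 members differed. The F test of limma, adjusted by Benjamini-Hochberg over all genes, called 209 genes, 3.2% of those tested. Rbp7 was called with F = 11.1 (adjusted p = 0.00104), Ucp1 with F = 5.56 (0.0242), Cidea with F = 5.34 (0.027) and Fabp4 with F = 5.00 (0.0335). Pparg (0.079), Lep (0.16), Adipoq (0.25) and Lpl (0.838) were not called. With array weights, Pparg, Lep and Adipoq were called too (limma adjusted p = 0.00641, 0.00273 and 0.00597). That setting called 1640 genes in all, against 209 in the main fit. Pparg was also called without a sample effect (0.0318), among 602 genes. Other settings lost calls. Ucp1, Cidea and Fabp4 were not called with the first spot (0.054, 0.0548 and 0.0523). Nor were they with a variance ratio estimated on the 8 members (0.384, 0.204 and 0.262). Fabp4 was not called with centring and scaling of the arrays (0.0652). Lep had F = 2.95 over all samples and 4.82 without hDMD 1. The Rbp7 call was kept whichever of the 26 samples was left out, with F from 8.49 to 15.2. The Fabp4 call was lost in 14 of these 26 fits. Without hDMD 1, Fabp4 had F = 2.98 (limma adjusted p = 0.15), while Ucp1 had F = 6.84 (0.0129) and Cidea F = 5.19 (0.0326). The Ucp1 call was lost in 8 of the fits (F from 3.73 to 8.44), those without bl10 2, mdx3cv 2, either sgcb2 or sgcd sample, sspn 1 or 1 sample of the line not shown. The Cidea call was lost in 13 (F from 3.64 to 12.5), those without bl10 2, mdx3cv 1, sgcb 2 or either sample of sgcb2, sgcd, dysf, sspn or the line not shown. For Fabp4 (F from 2.98 to 9.93) these were bl10 2, mdx3cv 2, sgcb 2, sjl 1, hDMD 1, either sample of sgcb2, sgcd, dysf or sspn, and 1 sample of the line not shown.

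The fitted order of Ucp1 placed both dysferlin-deficient lines, sspn and sgcb at the top. Levels were 3.82 ± 1.01 in dysf, 3.10 ± 0.99 in sspn, 2.67 ± 0.97 in sgcb and 2.54 ± 0.92 in sjl (SE, n = 2 samples each, relative to the mean of the groups). hDMD, sgcd and the wild types bl6 and bl10 followed between 0.16 and -0.32. The lowest were mdx3cv at -2.10, mdx at -2.13, sgca at -2.48 and sgcb2 at -2.65. The place of sspn came from the fit, since its solved sample levels were 0.42 and -0.41, while the median of the 24 samples was 0.26. So did that of dysf above sjl, since the solved levels were 2.54 and 0.49 in dysf against 3.66 and 4.54 in sjl. No neighbours in this order differed by more than 2 SE, nor did they for any other member. Cidea had the same lines in its top 4, with sgcb at 2.93 ± 0.88 and sjl at 2.47 ± 0.84, and the same 4 lines at its foot, down to sgcb2 at -2.69 ± 0.91. Its solved levels were 0.72 and -0.31 in sspn and 0.84 and 0.03 in dysf, against 0.71 and 3.82 in bl10.

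Rbp7 had another order. hDMD led at 2.17 ± 0.34, followed by sjl at 1.51 ± 0.33, dysf at 1.07 ± 0.36 and mdx at 0.90 ± 0.34. sspn was the lowest for Rbp7 at -1.23 ± 0.35. Its samples were at -1.43 and -1.87, the third lowest and the lowest of the 24. Fabp4 was highest in dysf (2.08 ± 0.71) and sgcb (2.07 ± 0.68) and lowest in hDMD (-2.90 ± 0.67), where its samples were at -6.14 and -1.16. The solved Fabp4 levels were 0.87 and 0.45 in dysf and 0.99 and 0.51 in sgcb, below 1.55 and 1.41 in sjl. For Pparg, sspn led at 0.92 ± 0.34 and bl6 was last at -1.32 ± 0.33. For Adipoq the ends were sspn (0.82 ± 0.36) and mdx (-0.96 ± 0.35). For Lpl they were sspn (1.14 ± 0.56) and sgcb2 (-0.54 ± 0.56), although the solved levels had the opposite order, -0.96 and 0.0062 in sspn against 0.38 and -0.068 in sgcb2. For Lep the ends were sgcb (0.95 ± 0.32) and sgcd (-0.59 ± 0.32). The solved Lep levels of sgcd were 0.67 and -0.28, with a median of 0.09 over the 24 samples. Solved Adipoq levels were higher in bl10 (0.67 and 1.05) than in sspn (0.46 and 0.63).

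**Figure D2:**
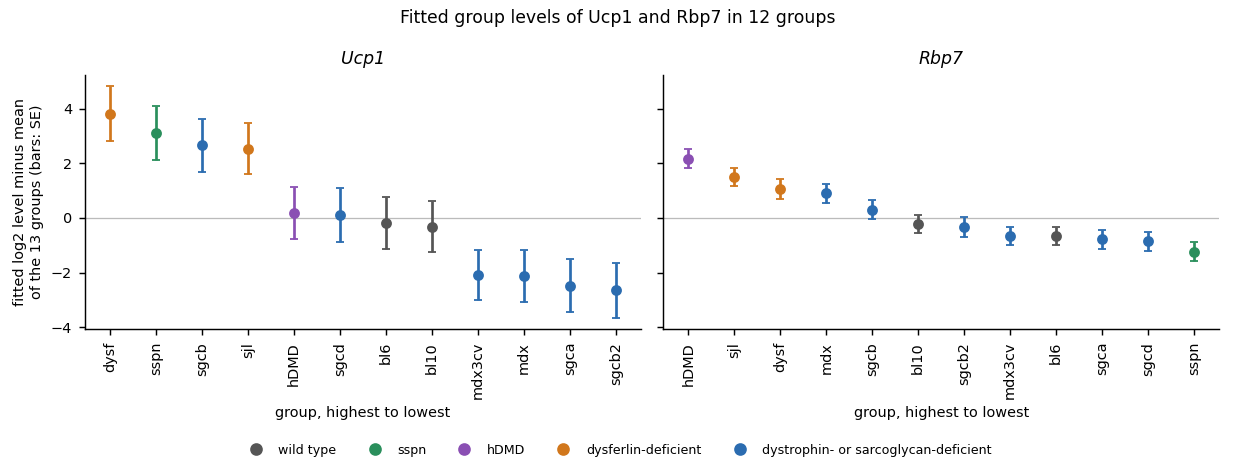
Fitted log2 level of Ucp1 and Rbp7 in 12 groups, relative to the mean of the 13 groups (y axis), ordered from highest to lowest, with bars of 1 SE and colours for the class of the line. dysf leads Ucp1 at 3.82 and hDMD leads Rbp7 at 2.17. The solved Ucp1 samples of dysf (2.54 and 0.49) lie below those of sjl (3.66 and 4.54). The fit places sspn second for Ucp1, although its solved samples lie at 0.42 and -0.41, and last for Rbp7.

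Ucp1 and Rbp7 were lower in the DS lines than in the dysferlin-deficient lines. The comparison called 8 genes in all (0.122% of 6540), 6 of them lower, and 2 of the 8 members were among these (0.0917% of genes were called lower). Ucp1 was at 2.54 and 0.49 in the dysf samples and at 3.66 and 4.54 in the sjl samples. The 12 samples of the 6 named DS lines lay between -3.75 and 3.96, with a median of -0.88. Of these 12 samples, 8 were below the lowest dysferlin-deficient sample, and the groups overlapped through sgcb 1, both sgcd samples and mdx3cv 2. The fitted difference was -4.48 ± 0.81 on the log2 scale (95% interval -6.16 to -2.80), 22.3-fold lower in DS (limma adjusted p = 0.0241). This error does not include the spread among the lines of a pool. The fitted levels of the named DS lines ran from -2.65 in sgcb2 to 2.67 in sgcb, against 2.54 in sjl and 3.82 in dysf. On the 2 arrays that set a named DS sample directly against a dysferlin-deficient one, the ratios ran in opposite directions. The log2 ratio of sgca 2 over sjl 1 was -3.41, and that of dysf 1 over sgcb 1 was -0.89. The mean dye difference of Ucp1, not removed from these ratios, was 0.535.

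Rbp7 gave a smaller and more even difference. Its level was 1.06 and 1.24 in the dysf samples and 1.26 and 1.35 in the sjl samples. The 12 named DS samples lay between -1.59 and 1.62, with a median of -0.39. Of these, 11 were below every dysferlin-deficient sample and mdx sample 2 was above them all. The fitted difference was -1.66 ± 0.29 (95% interval -2.26 to -1.07), 3.17-fold lower in DS (limma adjusted p = 0.0218). Here too the error does not include the spread among lines. The fitted levels of the named DS lines ran from -0.85 in sgcd to 0.90 in mdx, against 1.07 in dysf and 1.51 in sjl. On the same 2 arrays, the log2 ratio of sgca 2 over sjl 1 was -1.40 and that of dysf 1 over sgcb 1 was 0.39. The mean dye difference of Rbp7, not removed from these ratios, was 0.367. The solved levels of dysf 1 and sgcb 1 were 1.06 and 1.04, so that the second array showed almost no difference.

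The other members lay on the same side without passing the test. Cidea differed by -3.36 ± 0.73 (limma adjusted p = 0.0815), and passed without bl6 2, mdx 1, sgca 1, sgca 2 or sjl 1 (range over all such fits -4.32 to -2.50). Fabp4 differed by -1.45 ± 0.57 (0.469). Pparg was at -0.73 (0.457), Lpl at -0.74 (0.716), Adipoq at -0.61 (0.594) and Lep at -0.51 (0.622). All 8 estimates were below 0, with a median of -1.1 against -0.0313 over all genes. The estimates share samples and the members move together, so they are not 8 separate observations. The other genes called were Csnk1e, a casein kinase (-1.71), Ctse, the protease cathepsin E (-1.61), Pfkl, the liver-type phosphofructokinase (-1.63), Tfb2m, a mitochondrial transcription factor (-1.68), Casq2, the cardiac and slow-muscle calsequestrin (1.96), and Mest, an imprinted gene (2.39). They are named here after their values were seen.

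Both calls depended on single samples and on how the sample effect was set. Leaving out 1 sample at a time kept the Ucp1 difference between -5.24 and -3.82, but 11 of 26 fits lost the call, with adjusted p from 0.0116 to 0.302. These left out bl6 1, mdx3cv 2, sgcb2 1 or 2, sgcd 1 or 2, dysf 1 or 2, sjl 2, sspn 1 or 1 sample of the line not shown. For Rbp7 the difference stayed between -2.10 and -1.35, and 11 of 26 fits lost the call (adjusted p from 0.00895 to 0.186). These left out bl6 1, mdx3cv 1, sgcb2 1 or 2, sgcd 2, dysf 1 or 2, sjl 2, sspn 1 or 2, or 1 sample of the line not shown. Without hDMD 1 both calls held, at -4.05 for Ucp1 (limma adjusted p = 0.0255) and -1.63 for Rbp7 (0.017). A variance ratio between samples and arrays was also estimated on the 8 members (1.52, against 0.207 over all genes). This choice was made after seeing the data. With it the differences were -4.31 for Ucp1 (limma adjusted p = 0.121) and -1.64 for Rbp7 (0.0929). Estimated on each gene alone, the ratio was 0.141 for Ucp1 and 5.8 for Rbp7, so 1.52 is the ratio of neither. The differences were not tested with these ratios.

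**Figure D3:**
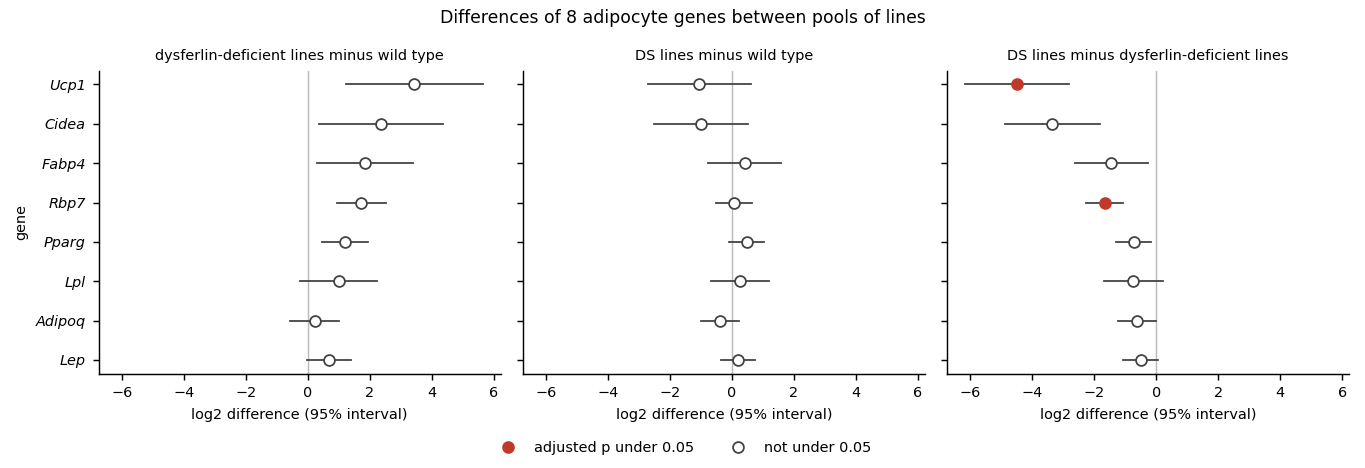
Log2 difference of each of the 8 genes in 3 comparisons of pooled lines (x axis, with 95% intervals from the fit), with filled red points for adjusted p under 0.05. The right panel holds the only filled points, Ucp1 at -4.48 and Rbp7 at -1.66, and all 8 of its points lie left of 0.

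Against wild type, none of the 8 members passed the test in the pooled comparisons. In dysferlin-deficient lines 3 of 6540 genes were called (0.0459%), and 574 had an unadjusted p under 0.05, 5 of the 8 members among them. The wild type levels of Ucp1 were 0.10 and 1.76 in bl6 and -0.30 and 3.35 in bl10. The dysferlin-deficient minus wild type difference was 3.43 ± 1.06 for Ucp1 (limma adjusted p = 0.322), 2.36 ± 0.97 for Cidea (0.48) and 1.85 ± 0.75 for Fabp4 (0.467). For Rbp7 it was 1.73 ± 0.38 (0.108). Its 4 dysferlin-deficient samples, from 1.06 to 1.35, did not overlap the 4 wild type samples, from -1.15 to 0.38. Groups did not overlap in this way for 1.85% of all genes, with the dysferlin-deficient samples higher for 1.15%. Without hDMD 1 the Rbp7 difference was 1.84 (limma adjusted p = 0.0196) and was called, as it was without hDMD 2 or sjl 1, within a range of 1.43 to 2.07. Leaving out 1 sample moved the others more, without a call. Ucp1 lay between 1.93 (without bl6 1) and 4.5 (without bl10 2), Cidea between 0.13 and 3.44 and Fabp4 between 0.35 and 2.85, with the ends set by the same samples. All 8 estimates were above 0, with a median of 1.46 against 0.116 over all genes. Markers of other cells had medians of 1.01 for macrophage, 0.879 for fibroblast, 0.422 for endothelial, 0.323 for muscle fibre and 0.0478 for blood genes. None of these was called, and their part in the members' values was not tested. On the 1 array that held bl6 1 and sjl 2, bl6 over sjl was -4.91 for Cidea, -3.90 for Ucp1, -2.82 for Fabp4 and -2.13 for Rbp7. The mean dye differences, not removed from these ratios, were 0.415 for Cidea and Fabp4, 0.535 for Ucp1 and 0.367 for Rbp7.

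DS lines against wild type called 510 genes (7.8%), with 6.45% of all genes higher and 1.35% lower. An unadjusted p under 0.05 was found for 1434 genes, and none of the members was in either count. Ucp1 differed by -1.05 ± 0.80 (95% interval -2.72 to 0.62), between -2.33 without bl6 1 and -0.18 without bl6 2, and Rbp7 by 0.07 ± 0.28 (-0.53 to 0.66). Fabp4 was at 0.41 ± 0.56 (-0.77 to 1.58). Pparg, at 0.47 ± 0.27, depended on the wild type used. Against bl6 alone it was higher by 1.2 (limma adjusted p = 0.0445) and against bl10 alone it was at -0.27 (0.892). The difference of bl10 over bl6 was 1.46 ± 0.43 for Pparg (0.44) in a comparison that called 1 gene (0.0153%). Dystrophic lines against the 4 non-dystrophic groups (bl6, bl10, sspn and hDMD) called 1012 genes (15.5%), 1765 with an unadjusted p under 0.05, and again no member was in either count. Other settings called some members. Cidea was called with array weights, at -1.99 (limma adjusted p = 0.0242) in DS against wild type and at -1.30 (0.0278) in dystrophic lines, and without bl6 1, at -2.90 (0.0363) and -1.82 (0.00583). In dystrophic lines Fabp4 was called without bl6 2 and without hDMD 2, where it was highest (1.36, limma adjusted p = 0.00554, lowest 0.21), and Adipoq without hDMD 2 and without sjl 2, where it was lowest (-0.64, 0.0213, highest -0.18). The comparisons with wild type share the same 4 wild type samples.

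With the main settings, Rbp7 was the only member called in a named single line against wild type, and only in sjl. The share of all genes called was 1.33% in mdx, 0% in mdx3cv, 7.42% in sgca, 0.199% in sgcb2, 2.13% in sgcd and 0.107% in dysf. In mdx3cv, where limma called 0 genes, 566 had an unadjusted p under 0.05. In sjl Rbp7 was higher by 1.95 ± 0.41 (limma adjusted p = 0.0483), 3.87-fold, in a comparison that called 16 genes (0.245%, with 0.199% higher). That call was lost in 18 of 26 fits that left out 1 sample, with differences from 1.17 to 2.72 and adjusted p from 0.021 to 0.28, and held only where the sample left out was mdx 1 or 2, sgca 1, sgcb 1 or 2, dysf 1, sjl 1 or hDMD 1. Without hDMD 1 it was 1.82 (limma adjusted p = 0.021). In hDMD Rbp7 was at 2.61 ± 0.47 (0.0615), with 1 gene called (0.0153%), without hDMD 1 at 1.84 (0.336) and without hDMD 2 at 3.82 (0.000276). In both of these fits hDMD was 1 sample, whose spread was assumed to be that of the other groups, and without hDMD 2 it was the sample that stood apart. It was also called without mdx 2, sjl 1 or sjl 2, within a range of 1.84 to 3.82. In mdx Rbp7 was at 1.34 ± 0.40 (0.105), and it was called there without sjl 2 or either hDMD sample, within a range of 0.97 to 1.81. Other settings also called Rbp7 in mdx, with array weights (1.53, limma adjusted p = 0.0187) and against bl6 alone (1.56, 0.0477). In hDMD it was called without a sample effect (2.58, 0.0473). Fabp4 in hDMD was at -2.42 ± 0.94 (0.659), at -0.56 without hDMD 1 and at -5.17 without hDMD 2 (limma adjusted p = 0.00399), where the group was hDMD 1 alone. In sgcb all 8 estimates were above 0, with a median of 1.22 against 0.174 over all genes, and in sspn 7 of 8, with a median of 1.58 against 0.0693. None of these was called, among 7 genes called in each line (0.107%), and 734 and 790 genes had an unadjusted p under 0.05. Medians of markers of other cells in sgcb were 1.08 for fibroblast, 1.06 for muscle fibre, 0.836 for macrophage and 0.758 for endothelial genes. In sspn they were 0.746 for muscle fibre, 0.532 for endothelial, 0.0441 for fibroblast and -0.6 for macrophage genes. None of these was called and their part was not tested.

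The array ratios of Ucp1 were most like those of Cidea and Lipe. Likeness was measured as Pearson's r over the 26 array ratios with the mean dye difference removed. It is a description, because neighbouring arrays share samples. The genes most like Ucp1 were Cidea (0.932), Lipe, the hormone-sensitive lipase (0.917), Mgst1, a glutathione transferase of membranes (0.879), Pfkl (0.858) and Pnpla2, the adipose triglyceride lipase (0.845). Both lipases start the release of stored fat. Without the 2 arrays of hDMD 1, Cidea (0.942), Lipe (0.907) and Mgst1 (0.859) were still the first 3, over 24 arrays.

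Fabp4 had other neighbours depending on 1 sample. Over the 26 arrays these were Aoc3, an amine oxidase of adipocytes and vessels (0.927), Fkbp3, an immunophilin (0.911), Mrps33, a mitochondrial ribosome protein (0.905), Psma3, a proteasome subunit (0.891), and Mdh1, the cytosolic malate dehydrogenase (0.885). Without the arrays of hDMD 1, a setting chosen after seeing the data, Aoc3 was at 0.835 and the others at 0.656 to 0.746. The top 5 were then Fabp9, of the same binding protein family (0.937), Pygl, the liver glycogen phosphorylase (0.911), Stra6, a retinol transporter (0.895), Pth1r, the parathyroid hormone receptor (0.885), and Lipe (0.842).

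Rbp7 was less like Ucp1, Cidea and Fabp4 than these were like each other. Its r was -0.05 with Fabp4, 0.34 with Ucp1 and 0.35 with Cidea, while Ucp1 and Fabp4 had 0.73. With Lep, Lpl, Pparg and Adipoq, Rbp7 had 0.41, 0.28, 0.22 and 0.18, where Fabp4 had 0.25, 0.19, 0.58 and 0.42. Without the arrays of hDMD 1, Rbp7 had 0.46 with Fabp4, 0.54 with Cidea and, close to Pparg (0.56) and Lep (0.58), 0.55 with Ucp1. Its nearest genes were Aldh1a7, an aldehyde dehydrogenase (0.768), Procr, the endothelial protein C receptor (0.757), Pdcd5 (0.715), Dpm1, which makes a mannose donor (0.693), and Ncoa1, a nuclear receptor coactivator (0.678). Without hDMD 1, Aldh1a7 (0.808) stayed first and Procr (0.695) stayed in the top 5. Pdcd5 (0.664), Dpm1 (0.665) and Ncoa1 (0.632) left it, and Coq7 (0.729), Smim11 (0.688) and Ap2a1 (0.687) took their places.

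**Figure D4:**
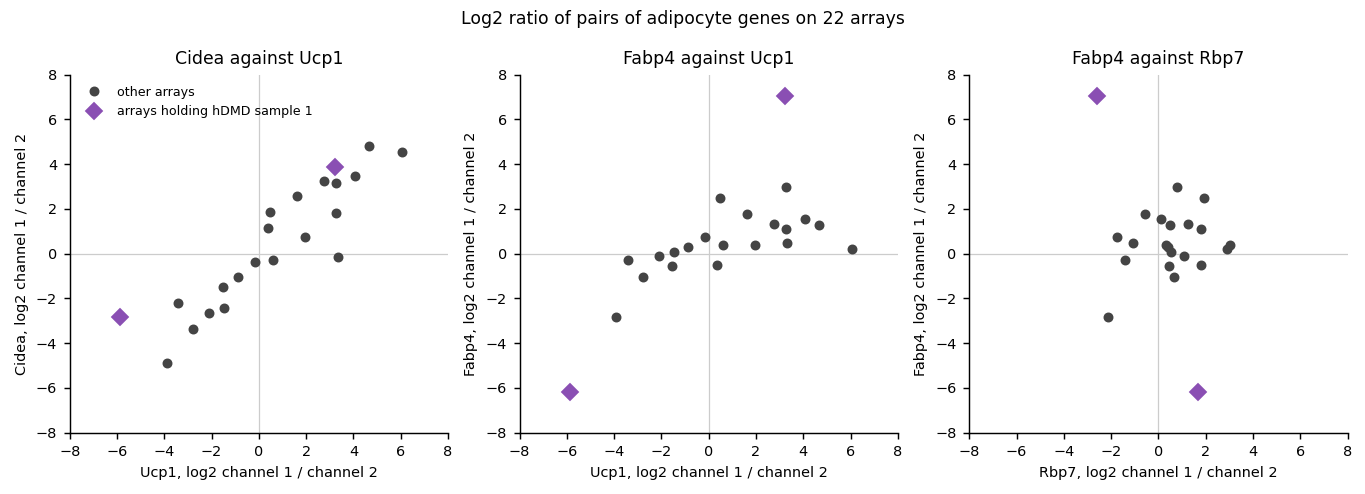
Log2 ratio of channel 1 over channel 2 for 3 pairs of genes (both axes) on the 22 arrays that hold named groups only, 1 point per array. Cidea rises with Ucp1 along 1 line, and the 2 arrays of hDMD sample 1 (diamonds) carry the extreme Fabp4 ratios, -6.17 and 7.06, at opposite Rbp7 ratios of 1.69 and -2.60.

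Other genes of brown and white fat were counted from lists. Of 33 listed brown adipocyte genes 23 were measured, and the F test called 2 (Ucp1 and Cidea) against 3.2% of all genes. In the comparison of DS with dysferlin-deficient lines 1 was called (0.122% of all genes), Ucp1 itself, and the median was -0.18 against -0.0313 over all genes. Against wild type in DS, 2 of the 23 were lower (1.35% of all genes), Cox8b (-1.49, limma adjusted p = 0.00585) and Cox7a1 (-1.10, 0.0403). They encode the forms of 2 cytochrome oxidase subunits that muscle fibres make as well as brown fat. Of 42 listed white adipocyte genes 33 were measured, and the F test called 4, Slc2a4, Fabp4, Dlk1 and Cd36, a fatty acid transporter. None was called between DS and dysferlin-deficient lines (8 genes called in all, 552 genes with an unadjusted p under 0.05), and the median was -0.457. In DS against wild type, Dlk1, an inhibitor of fat cell formation, was higher by 1.14 (0.00853) and Slc2a4, the insulin-regulated glucose transporter, also a muscle gene, was lower (-1.49, 0.00567), where 6.45% of all genes were higher and 1.35% lower. In dystrophic lines, where 15.5% of all genes were called, 3 of the 33 white adipocyte genes were higher and 1 lower, and 2 of the 23 brown ones were lower.

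Lists of related function were also counted in the F test, which called 3.2% of all genes. Lipid synthesis and storage had 2 of 16 called, Scd2, a fatty acid desaturase (adjusted p = 0.0242), and Lpin1, a phosphatidate phosphatase (0.0245). Lpin1 was lower in DS against wild type (-1.46, limma adjusted p = 0.0101), and in dystrophic lines 1 of the 16 was higher and 4 lower (15.5% of all genes called). The fatty acid and retinoid binding proteins had 3 of 12 called: Rbp7, Fabp4 and Fabp3, the heart and muscle form (0.0414). Nuclear receptors of the PPAR group and their partners had 1 of 10, the coactivator Med1 (0.018), which was higher in DS against wild type by 2.26 (0.0191). The uncoupling protein and carrier family had 1 of 5, Ucp1. Slc25a14, Slc25a4 and Slc25a5 had adjusted p from 0.509 to 0.552.

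Markers of other cells that fat or muscle tissue can hold were set beside the members. Macrophage genes were higher in DS against wild type for 9 of 13 measured (median 2.46, with 6.45% of all genes higher), among them Lgals3, the lectin galectin-3 (3.72), and fibroblast and preadipocyte genes for 8 of 15 (median 1.05), among them Fap, a fibroblast protease (1.60). Between DS and dysferlin-deficient lines, none of the 13 macrophage, 15 fibroblast, 19 endothelial, 17 muscle fibre or 6 blood genes was called, with medians of 1.13, 0.09, -0.25, -0.05 and -0.21. The mean level of the 19 endothelial genes, which matter here because endothelium also makes Fabp4 and Rbp7, lay between 0.09 and 0.53 in the dysferlin-deficient samples, -0.71 and 0.63 in the 12 DS samples and -0.71 and 0.61 in wild type. In hDMD it lay between -0.69 and -0.10. The mean level of the 17 muscle fibre genes lay between -0.42 and 0.59 in the dysferlin-deficient samples and -0.88 and 1.22 in the DS samples. The endothelial gene Meox2 was higher in DS against wild type (1.36, limma adjusted p = 0.0107), the 1 of 19 called there. The F test, which called 3.2% of all genes, called 8 of 13 macrophage, 3 of 15 fibroblast, 2 of 19 endothelial, 1 of 17 muscle fibre and 0 of 6 blood genes. The part of these cells in the values of the members was not tested.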

How the data were processed

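The authors deposited 1 value per spot and array, and per the labels no unit, dye, direction, scanner or normalization was stated. Steps left by whole-number intensities showed deposited ratios on a generalized natural log scale, on 22 of 22 arrays where a chain of steps could be fitted (tolerance 1%, each chain read at the scale nearest a log base). The other 4 arrays were taken to share it. Such a scale understates the change of dim spots. The design had assumed log2 ratios, so values were divided by 0.6931 to give log2. Array medians were -0.074 to 0.173 before this. Their centring stays unknown. Nothing states the direction of the ratio. Genes that the lines lack were compared in 9 pairs of gene and line. Read as channel 1 over channel 2, 7 were lower in the line that lacks them (3 with an unadjusted p under 0.05), and turned, 2 (0). The 2 exceptions are Dysf in dysf and sjl. The first reading is likely. Every sign rests on it.

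Of 16416 rows, 13662 had 1 gene, 14 several and 2740 none. Rows of a gene were averaged, giving 6540 genes, with gene names from the platform's annotation and the reference table (13602 rows matched by identifier). A generalized least squares model took 1 term for the dye and 12 for the groups, with a random effect per RNA sample (variance ratio 0.207, by REML over all genes), and was tested with limma 3.58.1 in R 4.3.3 (13 residual and 7.38 prior degrees of freedom, median residual SD 0.49). Benjamini-Hochberg adjustment was over all genes, with a threshold of 0.05. The fit was also run on data simulated from its own model with the same variance ratio. That checks the code and cannot bear on the calls of the members. The number of arrays limits the precision. Alternatives were array centring and scaling, single spots, no sample effect, array weights, either wild type alone, a replicate block, another variance ratio and leaving out each sample.

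The members and the gene lists were chosen with earlier results of these data known. Named are all measured members, up to 4 genes per list with the smallest F test p, and the 5 genes most like Ucp1, Fabp4 and Rbp7. Further names were chosen after their values were seen. The own results of 1 line are not reported here.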

Additional observations from a re-analysis of the deposited data

Results flagged for a closer look

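The difference between DS and dysferlin-deficient lines was past the threshold for 2 members. The effects of the pools against wild type differed by -4.48 for Ucp1 and -1.66 for Rbp7 on the log2 scale, by limma's test of the difference itself (adjusted p = 0.0241 and 0.0218). Among the pooled wild type and the pooled dysferlin-deficient samples, 4 each, no sample lay far enough from the others to be singled out for any of the 8 members (16 groups of values examined).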

How the results depend on the processing

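For Ucp1 between DS and dysferlin-deficient lines, the call was lost with the first spot (-5.25, adjusted p = 0.051), the second spot (-3.71), array weights (-4.32) and the members' variance ratio (-4.31). For Rbp7 it was lost with array weights (-1.67) and the members' ratio (-1.64). For Rbp7 in sjl it was lost with centring (1.83), centring and scaling (1.6), the first (1.94) or second spot (1.96), array weights (1.73), bl10 alone (1.73) and the members' ratio (1.88). The members' variance ratio was chosen after seeing the data. The cause of these losses was not tested.

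Genes called over the groups numbered 101 with centring and scaling, 137 with the first spot, 602 without a sample effect, 1640 with array weights and 22 with the members' ratio, against 209. Members called numbered 1, 7 and 1 with the first spot, array weights and the members' ratio, against 4. Between DS and dysferlin-deficient lines 2, 4, 0 and 0 genes and 1, 1, 0 and 0 members were called with the first spot, the second spot, array weights and the members' ratio, against 8 and 2. Leaving out 1 sample gave 42 to 664 genes and 1 to 5 members over the groups, and 0 to 25 genes and 0 to 3 members between DS and dysferlin-deficient lines. The lowest were without sspn 1 (42), and without sgcd 2 or sjl 2 (0), and the highest without hDMD 2 (664) and sgca 2 (25). Leaving out 1 sample gave -5.24 to -3.82 for Ucp1 and -2.1 to -1.35 for Rbp7 between DS and dysferlin-deficient lines, and 1.17 to 2.72 for Rbp7 in sjl.

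Some differences that were not called turned in sign. For bl10 over bl6 these were Ucp1 (0.534 with the first spot, 0.0894 with the members' ratio), Fabp4 (-0.111) and Cidea (-0.866) with array weights, Lep (0.15, second spot) and Lpl (-0.0252 with centring and scaling, -0.0656 with array weights). For DS over wild type they were Fabp4 (-0.149 with centring and scaling, -0.314 with array weights, -0.159 with bl10 alone), Rbp7 (-0.0199 with centring, -0.252 with centring and scaling, -0.153 with bl10 alone), Adipoq (0.133, bl6 alone) and Pparg (-0.265, bl10 alone). Adipoq in dysferlin-deficient lines was at -0.274 with centring and scaling and -0.297 with bl10 alone. For dystrophic lines these were Rbp7 (0.0367, first spot, and 0.0326, members' ratio) and Pparg (-0.0833, centring and scaling, and -0.259, bl10 alone).

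Leaving out 1 sample turned further differences that were not called. For bl10 over bl6 the ranges were -1.83 to 2.56 (Ucp1), -0.546 to 3.89 (Fabp4), -1.82 to 4.5 (Cidea), -0.299 to 0.129 (Lep) and -0.385 to 0.455 (Lpl). For DS over wild type they were -0.851 to 1.19 (Fabp4), -0.109 to 0.354 (Rbp7), -0.69 to 0.00225 (Adipoq), -0.206 to 0.524 (Lpl) and -2.9 to 0.333 (Cidea). For Adipoq in dysferlin-deficient lines it was -0.277 to 0.678, and for dystrophic lines -0.269 to 0.23 (Rbp7), -0.527 to 0.154 (Lpl) and -0.0372 to 0.36 (Pparg).

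Samples with the same replicate number were compared over 78 pairs of groups. The median correlation of same-numbered deviations was -0.0338, with a range of -0.796 to 0.663, and 31 were over 0.1. Whether samples with the same replicate number were processed together was not tested. With the numbers as a replicate block, Ucp1 was at -4.27 and Rbp7 at -1.62 between DS and dysferlin-deficient lines, 7 genes and 3 members were called there, with Cidea added (-3.08, adjusted p = 0.0198), and Ucp1 in bl10 over bl6 turned to 0.109.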
